A study of Sus scrofa with 7 samples.

Results

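The genes described here encode the proteins of the mitochondrial ribosome and were read in heart muscle of infarcted pigs that had received 1 of 2 gene vectors. A gene was taken when its symbol began with MRPL or MRPS followed by a number, which gave 76 of the 18860 genes with any reads. Testing needed a value of 10 or more in 3 or more libraries, and all 76 met this, as did 15652 genes in all. The tissue came from the anteromidventricular wall of male farm pigs 14 weeks after infarction of the region fed by the left circumflex coronary artery, so every animal carried an infarct and an adeno-associated virus of serotype 5. In 3 libraries (hrLuc) the vector carried luciferase, a reporter enzyme, and in 4 libraries (S100a1) the cargo was human S100A1, which binds calcium in cardiomyocytes. No group without infarction or without a vector was analysed here. The sources used here give neither the promoter of the vectors, nor the cells they reached, nor the ages of the pigs. The titles describe each library as a pig, and p-values measure the spread between these libraries.

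The mitochondrial ribosome sits at the inner membrane and translates the messenger RNAs of the mitochondrial genome, all of which encode subunits of the respiratory chain and ATP synthase. Its own proteins are encoded in the nucleus, made in the cytosol and imported. A large subunit joins amino acids and a small subunit reads the messenger. Some proteins descend from those of the bacterial ribosome and others were added in the mitochondrial lineage. Heart muscle is rich in mitochondria, and inherited defects of several of these proteins, among them MRPL3, MRPL44 and MRPS22, cause cardiomyopathy. By their place in the ribosome, 50 of the 76 belong to the large subunit (29 with a bacterial counterpart, 21 specific to mitochondria) and 25 to the small subunit (15 and 10). MRPS18A and MRPS30 count with the large subunit despite their symbols. MRPS36 carries a ribosomal symbol but its protein is a part of the 2-oxoglutarate dehydrogenase complex of the citric acid cycle. MRPL21 and MRPS12 were not analysed here.

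The libraries held 28651643 to 38376242 reads with 1 transcript row kept per gene, and the 76 genes together took 0.213% to 0.240% of them. Values below are normalized read counts, that is reads divided by 1 factor per library. They were not divided by transcript length, so levels are compared between libraries and not between genes. The mean of a gene ran from 148 (MRPL36) to 5623 (MRPS6), and the lowest single value was 117, in MRPL36. Heart muscle was checked by 11 measured markers of cardiomyocytes, which summed to 4620128 to 5196240 normalized counts in hrLuc and 4758008 to 6041045 in S100a1, and none was at 0. Like the cardiomyocyte sum, those of the other marker lists differed between libraries of one group. The 8 fibroblast markers summed to 130982 to 151705 in hrLuc and 84512 to 136682 in S100a1, the 8 endothelial markers to 27583 to 32472 and 27254 to 29977, the 6 smooth muscle and pericyte markers to 14792 to 21387 and 13788 to 16888, the 7 measured immune markers to 4973 to 6813 and 4369 to 6724, and the 4 measured adipocyte markers to 1141 to 1727 and 1217 to 2383. MS4A1 of the immune and LEP of the adipocyte list were too low to test, and MYH6 was not analysed here. The log2 fold change, S100a1 over hrLuc, was positive in 0 of 6 smooth muscle and pericyte markers (median -0.36). It was positive in 1 of 8 fibroblast markers (median -0.17), beside 43.5% of all genes. Positive values were found in 6 of 11 cardiomyocyte, 2 of 8 endothelial, 3 of 7 immune and 3 of 4 adipocyte markers. In bulk tissue, fewer cells of a type and less RNA per cell cannot be told apart. Pig S100A1 was at 6568 to 9125 in hrLuc and 4429 to 6804 in S100a1 (log2 fold change -0.39 ± 0.16, adjusted p = 0.577, limma). The vector carried the human sequence, and how its reads fared against the pig gene is not stated, so that gene does not check the labels.

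None of the 76 mitoribosomal genes changed between the vectors by the test used. Fold changes are S100a1 over hrLuc on the log2(value + 0.5) scale with their standard error, from limma fitted to all 15652 genes with Benjamini-Hochberg adjustment and a threshold of 0.05. The count past the threshold was 0 of 76, where 0.0128% of all genes passed, and the lowest adjusted p among the 76 was 0.540 (MRPS6, limma). With no adjustment, 2 of 76 had a p under 0.05, both higher in S100a1, against 8.27% of all genes (3.69% higher and 4.57% lower). When the table was turned back into whole reads, 0 of the 76 were called by edgeR and 0 by DESeq2, where they called 0.0128% and 0.575% of all genes. At an unadjusted p under 0.05 edgeR had 3 of the 76, against 8.52% of all genes, and DESeq2 had 2, against 8.67%. Of the 76 genes in the authors' deposited table, 0 had an adjusted p under 0.05, where 0.729% of all genes did, and the lowest value was 0.247 (MRPS6).

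The intervals show how large a change these libraries could have hidden. The log2 fold changes ran from -0.25 (MRPL34) to 0.24 (MRPS6), with a median of -0.023, beside -0.024 over all genes tested. The standard errors ran from 0.065 (MRPL1) to 0.21 (MRPL36), with a median of 0.10, beside 0.12 over all genes. In 75 of the 76 genes the 95% interval lay within a 1.5-fold change either way, as it did in 68.4% of all genes. The exception was MRPL36, the gene of lowest count, with an interval of -0.59 to 0.38.

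**Figure D1:**
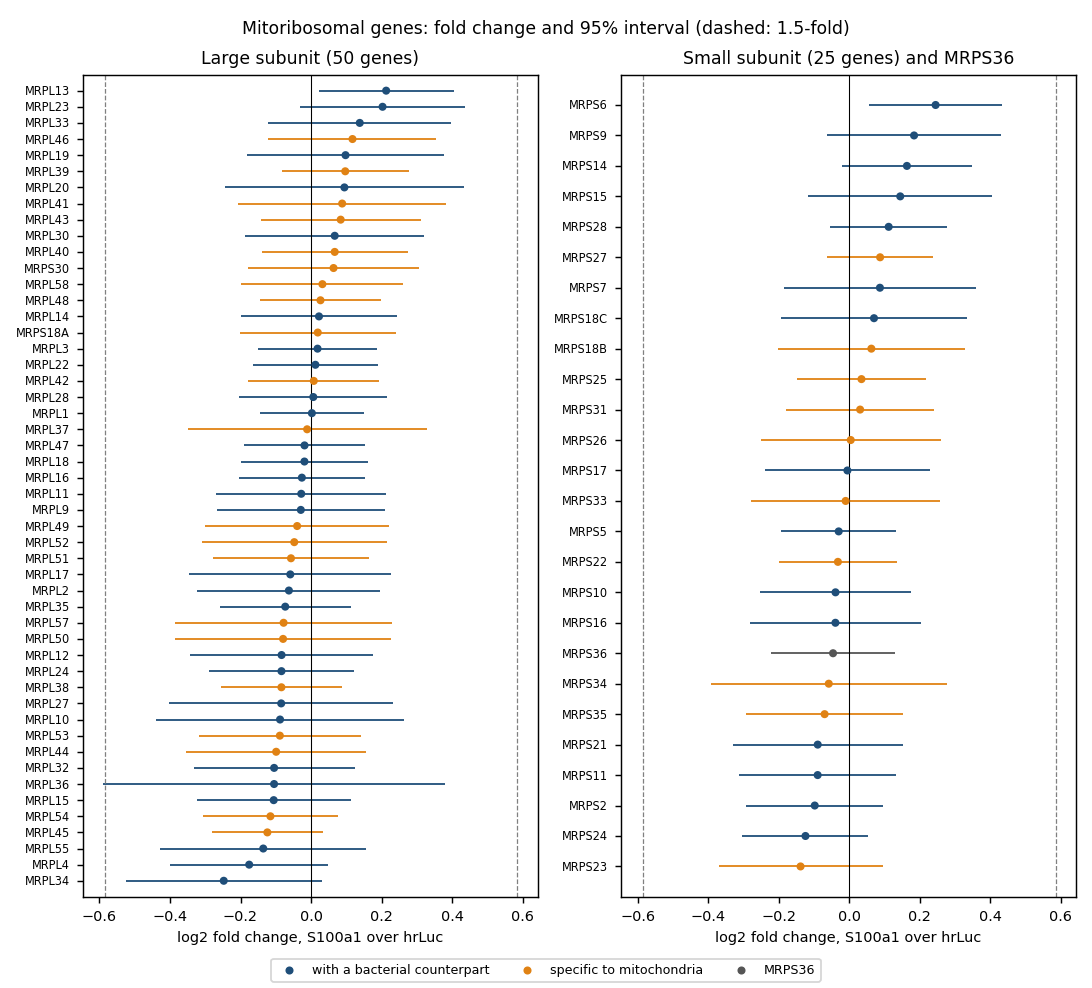
Each point is the log2 fold change of S100a1 over hrLuc of a mitoribosomal gene and each line its 95% interval from limma, with the large subunit on the left and the small subunit and MRPS36 on the right. The dashed lines mark a 1.5-fold change, and of the 76 intervals only that of MRPL36 reaches past one.

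The sign of the fold change was split, and the split moved with the scaling for these genes and for all genes. It was positive in 33 of the 76 (43.4%), beside 43.5% of all genes. After median centring 46 of the 76 were positive (60.5%), beside 56.2% of all genes, and after quantile normalization 41 (53.9%), beside 49.3%. In the large subunit 21 of 50 were positive (median -0.027), and in the small subunit 12 of 25 (median -0.0056). Of the genes with a bacterial counterpart 18 of 44 were positive (median -0.027), and of those specific to mitochondria 15 of 31 (median -0.011). Leaving out hrLuc replicate 3 turned the count to 54 of 76 positive (71.1%), with a median of 0.027, while 45.7% of all genes were positive.

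MRPS6, a small-subunit protein with a bacterial counterpart, had the smallest p. It lies on chromosome 13 from 197687906 to 197756773 (Sscrofa11.1). Its normalized count was 4817, 5426 and 5001 in hrLuc replicates 1 to 3 and 6320, 5649, 5547 and 6598 in S100a1 replicates 1 to 4. All 4 S100a1 libraries stood above all 3 hrLuc libraries. The log2 fold change was 0.24 ± 0.083 (95% interval 0.057 to 0.43, adjusted p = 0.540, limma), and it ran from 0.20 to 0.29 with a library left out.

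The MRPS6 locus also holds SLC5A3, which encodes the sodium-coupled carrier that takes up myo-inositol. SLC5A3 lies at 197688632 to 197723323, inside the span of MRPS6. Its count was 3593, 3922 and 3393 in hrLuc and 4604, 4015, 3913 and 4954 in S100a1, which is 67.9% to 75.1% of the MRPS6 count of the same library. S100a1 replicates 1 and 4 were the 2 highest libraries in both genes, and in SLC5A3 the groups overlapped (log2 fold change 0.26 ± 0.097, adjusted p = 0.556, limma). No source used here says how the counting treated reads shared by the 2 genes. If every SLC5A3 read also stood in the MRPS6 row, the remainder would be 1224, 1504 and 1608 in hrLuc and 1717, 1634, 1633 and 1644 in S100a1. On that assumption the remainder would have a log2 difference of 0.21 between the groups. They would be only just apart, with hrLuc replicate 3 at 1608 and S100a1 replicate 3 at 1633. The remainder was not tested.

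**Figure D2:**
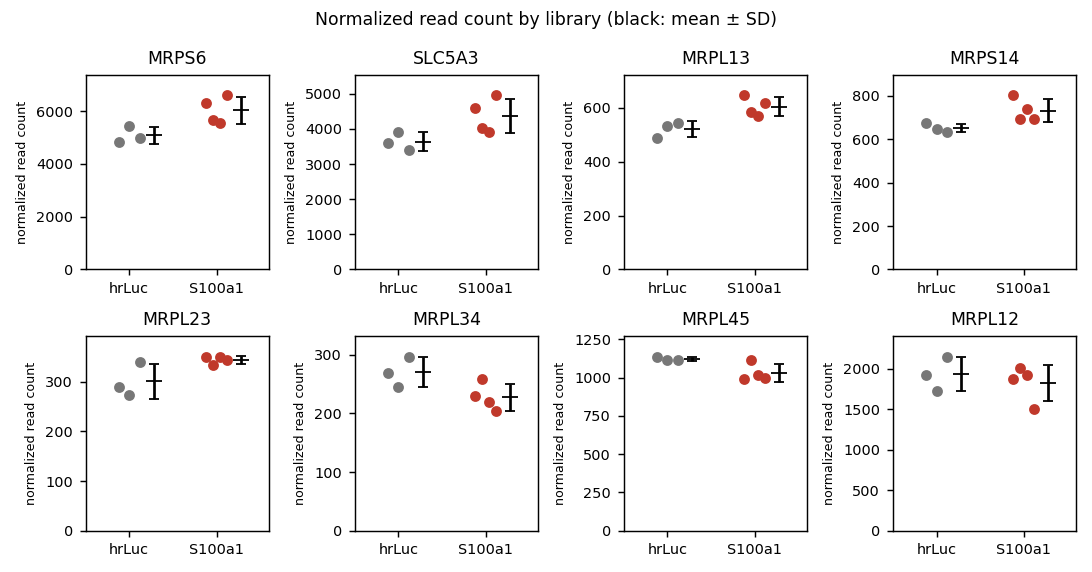
Each panel gives the normalized read count of a gene in the 3 hrLuc (grey) and 4 S100a1 (red) libraries, from 0, with the mean and SD of each group in black. The groups are apart in MRPS6, MRPL13, MRPS14 and MRPL45 and overlap in SLC5A3, MRPL23, MRPL34 and MRPL12.

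MRPL13, a conserved protein of the large subunit, was the other gene with an unadjusted p under 0.05. It lies on chromosome 4 from 18608919 to 18671523 and overlaps no other gene of the RefSeq table. Its count was 487, 532 and 543 in hrLuc and 645, 582, 571 and 617 in S100a1. The 4 S100a1 values were all higher, and the group means were 521 ± 29.5 (SD, n = 3) and 604 ± 33.9 (SD, n = 4). The log2 fold change was 0.21 ± 0.084 (95% interval 0.021 to 0.40, adjusted p = 0.574, limma), and it ran from 0.17 to 0.24 with a library left out.

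In 4 of the 76 genes the values of the groups stood apart, 3 higher and 1 lower in S100a1, against 9.27% of all genes (3.96% higher and 5.31% lower). The third on the higher side was MRPS14, a small-subunit protein with a bacterial counterpart. Its count was 674, 648 and 635 in hrLuc and 802, 694, 740 and 691 in S100a1 (log2 fold change 0.16 ± 0.081, adjusted p = 0.620, limma). S100a1 replicate 1 was the highest, and replicates 2 and 4 lay just above hrLuc replicate 1. The 1 on the lower side was MRPL45, which lies at the exit of the ribosomal tunnel and holds the ribosome to the inner membrane. Its count was 1136, 1114 and 1114 in hrLuc and 990, 1113, 1018 and 999 in S100a1. S100a1 replicate 2 stood almost level with hrLuc replicates 2 and 3, so the groups were only just apart (log2 fold change -0.12 ± 0.069, adjusted p = 0.643, limma).

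On the higher side the next genes by p were MRPL23, MRPS9, MRPS28, MRPS27 and MRPS15. MRPL23, a conserved large-subunit protein, was at 290, 273 and 340 in hrLuc and 351, 333, 350 and 345 in S100a1. Its S100a1 libraries were close together (SD 7.93), whereas hrLuc replicate 3 stood with them and hrLuc replicates 1 and 2 below (log2 fold change 0.20 ± 0.10, adjusted p = 0.625, limma). Leaving out hrLuc replicate 3 gave 0.29 and leaving out hrLuc replicate 2 gave 0.14. MRPS9 (0.18 ± 0.11), MRPS28 (0.11 ± 0.073) and MRPS15 (0.14 ± 0.12) are small-subunit proteins with bacterial counterparts, and their groups overlapped. MRPS27, a small-subunit protein with pentatricopeptide repeats, which bind RNA, was at 0.087 ± 0.066 in the transcript row kept and at -0.024 in its other row.

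On the lower side the genes of smallest p were MRPL34, MRPL45, MRPL4, MRPS24, MRPL54, MRPS23, MRPS2 and MRPL38. MRPL34, a small conserved protein of the large subunit, was at 269, 245 and 297 in hrLuc and 229, 258, 220 and 203 in S100a1. S100a1 replicates 1, 3 and 4 lay below all hrLuc values and replicate 2 lay among them (log2 fold change -0.25 ± 0.12, adjusted p = 0.618, limma). MRPL4 was at 1016, 937 and 1085 in hrLuc and 808, 870, 1034 and 882 in S100a1 (-0.18 ± 0.098), and S100a1 replicate 3 lay inside the hrLuc range. The others were at -0.12 (MRPS24, MRPL54), -0.14 (MRPS23), -0.098 (MRPS2) and -0.084 (MRPL38), with overlapping groups in each. These values leaned on single libraries. Without S100a1 replicate 1, MRPS24 was at -0.077 and MRPL54 at -0.066, and without hrLuc replicate 3, MRPS23 was at -0.071, MRPS2 at -0.053 and MRPL38 at -0.013.

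The members picked for a role outside the core of the ribosome, or for a tie to disease, gave small values with intervals on both sides of 0. These picks are not a full list of the members with such a role or tie. MRPL12, a stalk protein that also binds the mitochondrial RNA polymerase, was at 1920, 1730 and 2147 in hrLuc and 1868, 2011, 1922 and 1507 in S100a1, where replicate 4 was the lowest of all 7. Its log2 fold change was -0.084 (95% interval -0.34 to 0.17, limma). MRPL58, a peptidyl-tRNA hydrolase that frees stalled ribosomes, was at 0.032 (-0.20 to 0.26). MRPL11, of the same stalk region as MRPL12, was at -0.028 (-0.27 to 0.21), and MRPL41 at 0.088 (-0.21 to 0.38). Among genes whose inherited defects reach the heart, MRPL44 was at -0.099 (-0.36 to 0.16), MRPL3 at 0.018 (-0.15 to 0.19) and MRPS22 at -0.033 (-0.20 to 0.13). MRPS16, another gene of inherited mitochondrial disease, was at -0.040 (-0.28 to 0.20). The 3 proteins descended from the same bacterial small-subunit protein gave 0.019 (MRPS18A), 0.062 (MRPS18B) and 0.070 (MRPS18C). In the counts above, MRPS18A and MRPS18B stood among those specific to mitochondria, and only MRPS18C among those with a bacterial counterpart. MRPS30 was at 0.064 and MRPS36 at -0.046 (-0.22 to 0.13). Median centring adds 0.046 to the log2 fold change of every gene, which by itself brings MRPL11, MRPS16 and MRPS22 above 0. Those of MRPL12, MRPL11, MRPL3, MRPL44, MRPL58, MRPS18A, MRPS18B, MRPS22 and MRPS16 flipped with a library left out.

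The mitoribosomal proteins whose symbols do not begin with MRP gave values of the same size. All 5 had a negative log2 fold change and none passed the test (0 of 5, median -0.043, limma). DAP3, a GTP-binding protein of the small subunit, was at -0.027 ± 0.067, and PTCD3, a small-subunit protein with pentatricopeptide repeats, at -0.0041 ± 0.069. CHCHD1 (-0.079 ± 0.13) and AURKAIP1 (-0.043 ± 0.11) belong to the small subunit and GADD45GIP1 (-0.12 ± 0.17) to the large. The 0.046 that median centring adds to every gene brings DAP3, PTCD3 and AURKAIP1 above 0. The signs of PTCD3, CHCHD1, AURKAIP1 and GADD45GIP1 flipped with a library left out.

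What most of the 76 genes shared, at least in part, was a pattern from heart to heart that cut across the vectors. In hrLuc replicate 3, 63 of the 76 (82.9%) stood above their own mean over the 7 libraries, and in S100a1 replicate 4 only 8 (10.5%) did. Among all genes tested those shares were 56.4% and 45.9%. S100a1 replicates 2 and 3 were on the high side with 55 and 60 of 76, hrLuc replicate 2 on the low side with 15, and hrLuc replicate 1 and S100a1 replicate 1 between them with 33 each. High and low libraries thus occurred in both groups. The highest value of a gene fell in hrLuc replicate 3 for 33 of the 76, and the lowest in S100a1 replicate 4 for 34. The sums of the 76 genes were 71251, 70213 and 77994 normalized counts in hrLuc and 73161, 76675, 75960 and 69514 in S100a1, so the distance between the extreme libraries was small.

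**Figure D3:**
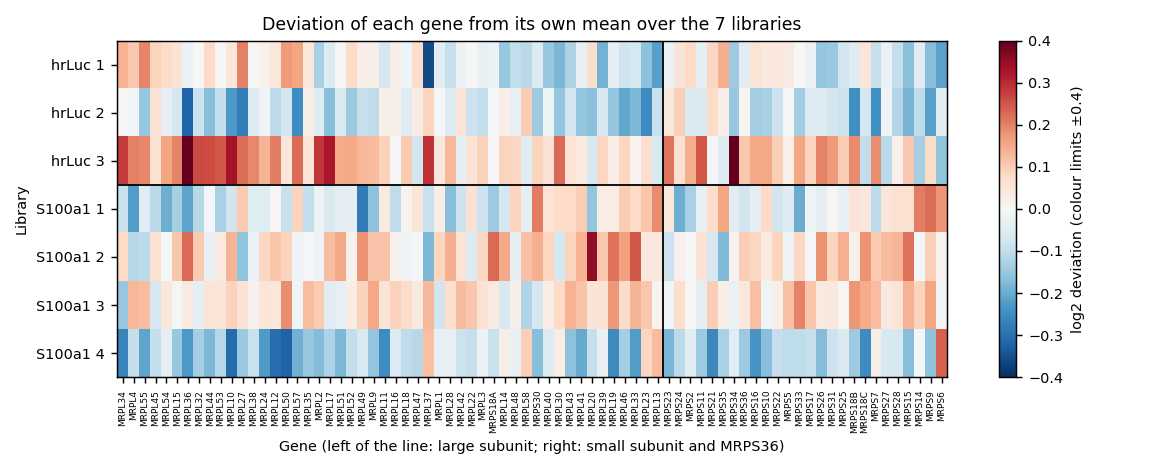
Each column is a mitoribosomal gene and each row a library, and the colour gives the log2 deviation of the gene from its own mean over the 7 libraries (red above, blue below, colour limits at 0.4). The row of hrLuc replicate 3 is mostly red and that of S100a1 replicate 4 mostly blue, whereas MRPS6, at the right edge, is red in S100a1 replicate 4.

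The genes also moved together once the group means were removed. After subtraction of each group's own mean, the mean pairwise correlation of the 76 genes over the 7 libraries was 0.42, beside 0.0083 for all pairs of genes tested. This is a description: the points of every pair share the same libraries and the same size factors, and 7 libraries with 2 group means removed leave few independent points. The value was 0.43 in the large and 0.38 in the small subunit. It was 0.57 in the 38 members of shorter span on the genome and 0.29 in the 38 of longer span. All genes tested, split by span, had 0.047 and 0.0027. With a library left out the value of the 76 genes ran from 0.33 (without S100a1 replicate 4) to 0.48 (without S100a1 replicate 1). It was 0.32 after median centring and 0.26 once the trend of each library with gene span was taken out. Under those 2 alternatives S100a1 replicate 4 had 14 and 15 of the 76 genes above their mean, and hrLuc replicate 3 had 58 and 51. The libraries that had been in between parted: hrLuc replicate 1 had 23 and 24, and S100a1 replicate 1 had 43 and 49. S100a1 replicates 2 and 3 then had 54 and 60 after median centring and 49 and 60 without the span trend, and hrLuc replicate 2 had 16 and 23. With the span trend removed, hrLuc replicates 1 and 2 were thus low and S100a1 replicates 1 to 3 high, and hrLuc replicate 3 and S100a1 replicate 4 went against the rest of their groups.

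The members followed the pattern to differing degrees. MRPL47, MRPS21 and MRPS35 stood on the side of the other members' median in only 2 of the 7 libraries, and MRPL57, MRPL58, MRPS23 and MRPS6 in 3. MRPL13, MRPL14, MRPL16, MRPL22, MRPL27, MRPL30, MRPL34, MRPL35, MRPL37, MRPL45, MRPS10, MRPS14 and MRPS18C did so in only 4. In all 7 libraries this held for MRPL3, MRPL28, MRPL36, MRPL53, MRPS25, MRPS26 and MRPS33. MRPS6 was highest in S100a1 replicate 4, where only 8 of the 76 genes lay above their own mean. All these members were singled out after their values had been seen.

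Cytosolic ribosomal proteins and nuclear subunits of the respiratory chain were high and low in some of the same libraries and parted from the mitoribosomal genes in others. In hrLuc replicate 3, 77 of 80 cytosolic ribosomal protein genes and 75 of 81 respiratory chain genes stood above their own mean, and in S100a1 replicate 2 these numbers were 78 and 73. In hrLuc replicate 2 they were 2 and 4. S100a1 replicate 3 had 53 of the 80 and 60 of the 81, and S100a1 replicate 4 had 23 and 11. In hrLuc replicate 1 the numbers were 10 and 14, and in S100a1 replicate 1 they were 14 and 42, where the mitoribosomal genes had 33 of 76 in both. The cytosolic genes were thus lower in those 2 libraries than in S100a1 replicate 4, the lowest library of the mitoribosomal genes. Their mean pairwise correlations within groups were 0.73 and 0.59, above the 0.42 of the mitoribosomal genes. Their median log2 fold changes were 0.024 and 0.037. The difference between the gene sets was not tested.

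**Figure D4:**
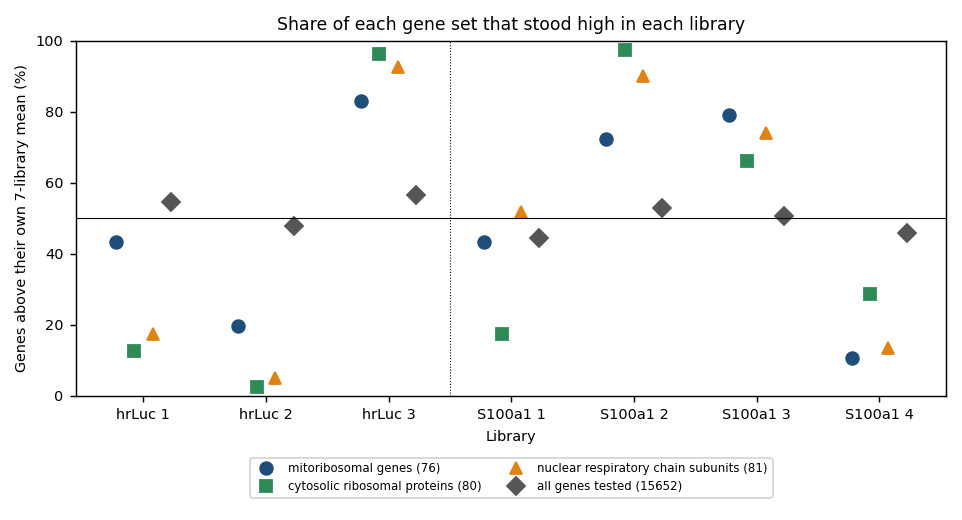
For each library the points give the percentage of genes above their own mean over the 7 libraries, for the 76 mitoribosomal genes (circles), 80 cytosolic ribosomal protein genes (squares), 81 nuclear respiratory chain genes (triangles) and all 15652 genes tested (diamonds). The first 3 sets are high in hrLuc replicate 3 and S100a1 replicate 2 and low in hrLuc replicate 2 and S100a1 replicate 4, whereas all genes stay between 44.3% and 56.4%.

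The medians of cardiomyocyte markers and of short genes moved partly with the same libraries. The median deviation of the 11 cardiomyocyte markers from their own means was -0.10, -0.075 and 0.11 in hrLuc replicates 1 to 3 and 0.12, 0.085, 0.038 and -0.092 in S100a1 replicates 1 to 4. That of the 76 genes was -0.023, -0.074 and 0.10, and then -0.035, 0.082, 0.055 and -0.11. The medians of markers and mitoribosomal genes lay on opposite sides in S100a1 replicate 1 and on the same side in the other libraries. The cardiomyocyte markers moved little together, with a mean pairwise correlation within groups of 0.084. Their sums gave another order, 4620128, 5196240 and 5071641 in hrLuc and 6041045, 4758008, 4799060 and 5330503 in S100a1. Fibroblast markers had 0.31, 0.049 and 0.0067 in hrLuc and -0.45, -0.13, 0.10 and 0.062 in S100a1, another order. Endothelial markers had -0.037, 0.16 and -0.047, and then -0.062, -0.088, -0.044 and 0.043, on the mitoribosomal side only in replicate 1 of each group. Immune markers had 0.35, -0.10 and 0.081, and then -0.36, 0.20, -0.098 and -0.043, opposite in hrLuc replicate 1 and S100a1 replicate 3. Smooth muscle and pericyte markers had 0.47, 0.37 and -0.18, and then 0.17, -0.16, -0.28 and -0.42. The 7826 genes of shorter span among all genes had 0.041, -0.023 and 0.082 in hrLuc and -0.068, 0.026, 0.00062 and -0.035 in S100a1, on the other side from the mitoribosomal genes in hrLuc replicate 1. The part of cell content and of gene length in the pattern was not tested.

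Mitoribosomal genes are short, with a median span on the genome of 8.80 kb beside 27.1 kb for all genes tested, and the fold change was related to span. In the shorter 38 members 12 were positive (median -0.052), and in the longer 38 there were 21 (median 0.0099). All genes tested, split the same way, had medians of -0.053 and 0.0014. Across the 76 genes Spearman's rho of span against log2 fold change was 0.27, and across all genes 0.18. These correlations are across genes, which are not independent replicates. The 4 genes with separated groups and both genes with an unadjusted p under 0.05 were among the longer 38. Over all genes the groups stood apart in 8.78% of the shorter and 9.76% of the longer genes. An unadjusted p under 0.05 (limma) was found in 7.83% of the shorter and 8.70% of the longer. With the span trend of each library removed, 45 of the 76 were positive (59.2%, median 0.022), beside 48.7% of all genes (median -0.0052). The test passed 0 of them (lowest adjusted p = 0.547, limma), and 3 had an unadjusted p under 0.05, against 8.4% of all genes.

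**Figure D5:**
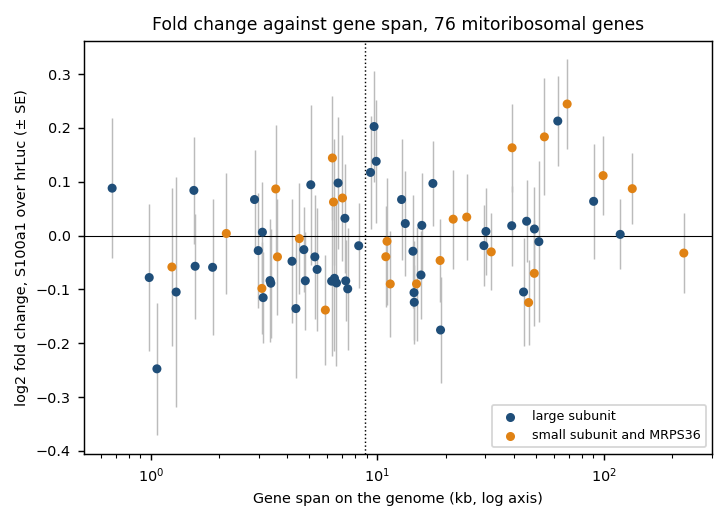
Each point is a mitoribosomal gene, with its span on the genome in kb on a log axis and its log2 fold change of S100a1 over hrLuc with the standard error. The dotted line marks the median span of 8.80 kb, and 12 of the 38 genes to its left and 21 of the 38 to its right lie above 0.

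Overlap with other genes also went with the sign among the members. All genes were not split by overlap, and genes are not independent replicates, so this is a description. The span of 25 of the 76 genes overlapped another gene in the RefSeq table, and 16 of these had a positive log2 fold change (median 0.012). Among the 49 without overlap 16 were positive (median -0.040), and MRPL41 and MRPS2 are on no placed chromosome. Reads shared with a neighbour cannot be told apart where the counting is not known. The partners include TWNK, the mitochondrial DNA helicase (with MRPL43), FAU, which encodes a ribosomal fusion protein (with MRPL49), and COPB2, a coat protein of transport vesicles (with MRPS22). The choice of transcript row mattered little: of 156 rows for the 76 genes, 29 genes had rows with differing values, and the rows of a gene differed by at most 0.11 in log2 fold change. In 4 genes (MRPL22, MRPL52, MRPS22 and MRPS27) the rows had opposite signs.

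The other genes of mitochondrial gene expression did not pass the test either. Over all genes tested 0.0128% passed and 8.27% had an unadjusted p under 0.05 (limma), and the groups stood apart in 9.27%. Among 26 measured genes of ribosome assembly and ribosomal RNA modification 9 were positive (median -0.022), and 0 of 26 passed (limma, 2 at an unadjusted p under 0.05). Their smallest p were those of MPV17L2, needed for assembly at the inner membrane (162, 143 and 125 in hrLuc and 74.3, 111, 119 and 75.9 in S100a1, log2 fold change -0.61 ± 0.21, adjusted p = 0.540, limma), and PTCD1 (-0.25 ± 0.10). The 4 MPV17L2 values of S100a1 were all lower, with replicates 1 and 4 lowest. It was the only 1 of the 26 with separated groups, against 9.27% of all genes. Of 17 translation factors 11 were positive (median 0.067) and 0 passed (limma, 2 at an unadjusted p under 0.05). MTIF2, the initiation factor that brings the first tRNA, was at 0.33 ± 0.15, and GFM2, which helps to recycle ribosomes, at -0.23 ± 0.10. MTIF2 was at 0.51 without hrLuc replicate 3 and at 0.22 without hrLuc replicate 2.

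Of 20 genes that charge mitochondrial tRNAs with amino acids 9 were positive (median -0.0090) and 0 passed (limma). By limma 3 of the 20 had an unadjusted p under 0.05, against 8.27% of all genes. TARS2, which charges threonine, was lower in every S100a1 library than in any hrLuc library (949, 852 and 1013 against 828, 779, 841 and 748; -0.23 ± 0.085, adjusted p = 0.556, limma), and MARS2, which charges methionine, was higher in every one (463, 512 and 524 against 574, 619, 561 and 559; 0.21 ± 0.085, adjusted p = 0.574, limma). Of 16 genes for the replication and transcription of mitochondrial DNA and for RNA processing 9 were positive (median 0.022) and 0 passed (limma). In 1 of the 16 the unadjusted p was under 0.05 (limma), against 8.27% of all genes. The 2 of smallest p belong to the same enzyme, the DNA polymerase of mitochondria, and had opposite signs. The catalytic subunit POLG was at -0.21 ± 0.073 (adjusted p = 0.540, limma) and the accessory subunit POLG2 at 0.17 ± 0.096 (adjusted p = 0.642, limma). In both the groups did not overlap, and the difference between the 2 was not tested. The groups stood apart in 3 of the 20 tRNA charging genes and in 2 of these 16, against 9.27% of all genes. POLG overlaps FANCI and TARS2 overlaps ECM1. The mean pairwise correlation within groups was 0.29 for translation factors and 0.33 for the list of replication, transcription and RNA processing. It was 0.091 for assembly factors and 0.14 for tRNA charging.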

How the data were processed

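RNA sequencing values of 7 pig heart libraries (3 hrLuc, 4 S100a1, grouped by title) were used. Per the labels' protocols, total RNA (AllPrep) was sequenced after depletion of ribosomal RNA (TruSeq RiboZero). DESeq2 1.33.1, FastQC 0.11.8, R 4.1.2 and the build Sscrofa11.1 appear in the submitters' processing notes. No source used here names the aligner, the counting program or its use of strand. The deposited values are a signal for each transcript and library that equals reads over a library's size factor, and 100% of them came out as whole reads (tolerance 0.01 read). The deposited log2 column and ratio column are the authors' fold change, and the deposited p-value column is their adjusted p.

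For each symbol the transcript row of highest mean was kept, and genes with 10 or more normalized counts in 3 or more libraries entered limma 3.58.1 (R 4.3.3) with a mean-variance trend on log2(value + 0.5), without covariates (5 residual and 3.85 prior degrees of freedom, two-sided). The test fixed for normalized values was thus used. edgeR 4.0.16 and DESeq2 1.42.0 were run on the recovered reads. The fit was tested on simulated counts. Other alternatives were other scalings, pseudocounts, filters, prior, transcript row, the replicate number as a block, each library left out and a threshold of 0.10. Removal of the gene span trend and of overlapping members was chosen after seeing the data. Gene spans, positions and overlaps come from RefSeq (Sscrofa11.1), matched by accession for all 18860 genes. The intervals are limma's at 95%.

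The members and gene lists were chosen with earlier results of these data known. Named genes are the 8 members of smallest p in each direction, 13 members picked for their role, the 5 mitoribosomal genes under other symbols, and the 2 of smallest p in each other list. S100A1, the gene of the vector, and SLC5A3, chosen after its values were seen, were added. A part of the rule on level per length could not be applied, because transcript lengths were not used here. No p is given for a list.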

Additional observations from a re-analysis of the deposited data

Results flagged for a closer look

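In 91 genes the 4 S100a1 values were examined for a library far from the others, and 2 genes had one. Chance alone gives about 1 in 20. MRPL41 was at 159 in S100a1 replicate 4 and at 195 to 201 in the other 3 S100a1 libraries. POLG was at 1368 in S100a1 replicate 3 and at 1212 to 1214 in the other 3.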

How the results depend on the processing

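The count of mitoribosomal genes past the threshold was 0 under all alternatives run, including the threshold of 0.10, and with each library left out (0 to 0). Their median log2 fold change ran from -0.048 to 0.027 with a library left out, and the count with a positive value from 24 to 54 (54 without hrLuc replicate 3). Among the members without overlap 16 were positive, of 49 in place of 76. The labels do not say that replicate numbers pair the pigs, and the deviations of same-numbered libraries correlated at -0.022, -0.076 and 0.083. Of the 3 hrLuc libraries, only replicate 3 correlated best with its own number. S100a1 replicate 4 has no partner, so the replicate block leaves it no weight. With the block 0 of the 76 passed (lowest adjusted p = 0.758, limma), 44 were positive and the median was 0.014, and the genes called over the whole table went from 2 to 0. The whole-table count was 90 in DESeq2, 3 with quantile normalization, 1 with median centring, 3 with the span trend removed and 0 to 3 with a library left out.

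Of 44 named genes 0 were called under any alternative, and 29 never changed sign. With median centring, which adds 0.046 to every gene, the values that changed sign were MRPL11 0.018, MRPS22 0.014, MRPS16 0.0066, DAP3 0.020, PTCD3 0.042 and AURKAIP1 0.0036. With quantile normalization they were MRPL11 0.013 and PTCD3 0.0026. With the replicate block they were MRPL12 0.0060, MRPL11 0.052, MRPS16 0.034, PTCD3 0.021 and AURKAIP1 0.025. With the span trend removed they were MRPL11 0.033, MRPS16 0.022, PTCD3 0.015 and AURKAIP1 0.015. PTCD3 was at 0.018 in edgeR and 0.016 in DESeq2. In the middle transcript row MRPS27 was at -0.024 and MRPS22 at 0.016. With a library left out, the ranges of the genes that changed sign were -0.16 to 0.0060 (MRPL12), -0.070 to 0.052 (MRPL11), -0.023 to 0.070 (MRPL3), -0.21 to 0.0031 (MRPL44), -0.013 to 0.092 (MRPL58), -0.054 to 0.070 (MRPS18A), -0.042 to 0.17 (MRPS18B), -0.083 to 0.0052 (MRPS22), -0.12 to 0.034 (MRPS16), -0.033 to 0.043 (PTCD3), -0.17 to 0.0071 (CHCHD1), -0.092 to 0.025 (AURKAIP1) and -0.25 to 0.072 (GADD45GIP1). The cause of these changes was not tested.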
